A study of Mus musculus with 3 samples.

Results

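The genes described here belong to the growth hormone and insulin-like growth factor (IGF) axis, to the activin system and to the stress-induced proteins that the liver secretes. They were chosen by symbol and are Ghr, Igf1, Igfals, Igfbp1, Igfbp2, Igfbp4, Inhba, Inhbe, Fst and Gdf15, 10 of the 23361 genes in the mRNA tables. All 10 reached an FPKM (fragments normalised for transcript length and for the mapped fragments of the library) of at least 1 in some library, as did 10792 genes in all. The 3 libraries, 1 per condition, came from livers of C57BL/6J mice labelled male and 8 to 10 weeks old, which were fasted for 12 h and operated on under chloral hydrate. The sham mice had a midline laparotomy without occlusion and stayed in clean cages until their livers were taken after 90 min. In the warm ischemia (WI) mice the vessels and bile duct to the left and median lobes, 70% of the liver, were clamped for 90 min. In the ischemia followed by reperfusion (IR) mice the same clamp was removed after 90 min and the liver was taken 120 min later. No sham library matches the IR library in time, and the sources do not say if RNA was pooled over mice. With 1 library per condition, no difference below has a replicate check and no test was run.

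Growth hormone acts on hepatocytes through its receptor, Ghr, and the kinase JAK2, which activates the transcription factor STAT5, and the liver responds by secreting IGF-1. In blood IGF-1 travels in a complex with an IGF-binding protein and the acid-labile subunit, encoded by Igfals, while the smaller binding proteins IGFBP1, IGFBP2 and IGFBP4 hold it in pools that turn over faster. IGFBP1 is known for its quick responses, down with insulin and up with fasting, glucocorticoids and hypoxia. Activins are dimers of inhibin beta subunits that signal through Smad2 and Smad3, and follistatin, encoded by Fst, binds activins and blocks them. The beta C and beta E subunits are made mainly by hepatocytes. GDF15 is a distant member of the TGF-beta family that rises with cellular stress and acts on the brainstem to lower food intake.

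The sequences before the start sites of Igfbp1, Inhbe and Gdf15 are shown because these members differed at least 2-fold between libraries and because each holds a short motif of a factor known to act on stress or metabolic genes. They were taken from RefSeq on GRCm38.p6, the assembly that the mm10 tables use, and are the 250 bases before the annotated start nearest to the gene's locus in the tables, 5′ to 3′ on the gene's strand. Capitals mark the motif, which is CAAAACA (the core of an insulin response element) in Igfbp1, TGATGNAA (a composite C/EBP and ATF motif) in Inhbe, where it lies on the other strand, and overlapping matches of ACGTG (the core of a hypoxia response element) on both strands in Gdf15.
Igfbp1, chr11:7197537-7197786, plus strand: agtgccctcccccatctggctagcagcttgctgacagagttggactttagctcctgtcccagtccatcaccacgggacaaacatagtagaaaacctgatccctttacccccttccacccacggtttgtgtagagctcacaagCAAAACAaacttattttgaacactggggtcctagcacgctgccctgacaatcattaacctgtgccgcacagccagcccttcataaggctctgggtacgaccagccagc
Inhbe, chr10:127351849-127352098, minus strand: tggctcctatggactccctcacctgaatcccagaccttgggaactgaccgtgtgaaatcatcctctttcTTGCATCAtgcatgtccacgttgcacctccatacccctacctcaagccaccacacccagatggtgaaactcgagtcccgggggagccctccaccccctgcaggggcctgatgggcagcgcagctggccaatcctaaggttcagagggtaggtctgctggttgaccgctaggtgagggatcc
Gdf15, chr8:70632096-70632345, minus strand: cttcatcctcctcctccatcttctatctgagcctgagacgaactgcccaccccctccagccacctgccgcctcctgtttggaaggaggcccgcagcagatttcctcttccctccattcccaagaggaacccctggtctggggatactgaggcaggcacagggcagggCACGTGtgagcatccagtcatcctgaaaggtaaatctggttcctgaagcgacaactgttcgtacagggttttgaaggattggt
The Igfbp1 motif began 108 bases before the start, the Inhbe motif 181 bases before it and the Gdf15 motif 83 bases before it. This start was that of the locus in the tables for Igfbp1. It lay 76 bases upstream of the locus for Inhbe and 460 bases upstream for Gdf15. Searched on both strands over 300 bases (250 before and 50 after each start), CAAAACA occurred in 6.28% of 32851 RefSeq windows, TGATGNAA in 3.97% and ACGTG in 19.6%. Among the 14 windows of the 9 members that the table holds, CAAAACA was found in Igfbp1, TGATGNAA in Inhbe, and ACGTG in Igfbp2, Inhbe and Gdf15. Of the other motifs searched, the STAT motif TTCNNNGAA (8.30% of all windows) and the forkhead motif TGTTTAC (3.65%) occurred in Igfals, the AP-1 motif TGAGTCA (5.20%) in Igfbp2, and TATAAA (13.6%) in Ghr, Igfbp4 and Inhba. The cAMP response motif TGACGTCA, found in 1.79% of all windows, matched 0 of the 14. These matches describe letters in a window and not bound sites, and Fst was not among the windows.

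The libraries differed in more than the operation. All mice were labelled male, but Xist, the RNA of the inactive X chromosome in females, was at 18.9 FPKM in sham, 20.1 in WI and 1.29 in IR. The Y-linked genes went the other way, with Ddx3y listed at 0 in sham, 0.00849 in WI and 8.58 in IR and Eif2s3y at 0, 0 and 13.2. Of 9 genes that are more active in male mouse liver, 9 were at least 2-fold higher in IR than in sham, and of 11 that are more active in female liver 7 were lower and 1 was higher. For every comparison with the IR library, reperfusion, the longer time after surgery and the difference in sex markers cannot be told apart, and growth hormone signalling is itself known to differ between the sexes in mouse liver. Sham and WI did not differ in this way, as Xist was high and the Y-linked genes were at or near 0 in both, although 2 of the 9 male-biased and 4 of the 11 female-biased genes were at least 2-fold lower in WI. Marker lists of liver cells also moved. The summed FPKM of 5 neutrophil markers was 24.3 in sham, 18.7 in WI and 456 in IR, while that of 6 Kupffer cell markers was 442, 221 and 138. All 4 neutrophil markers over 1 FPKM were at least 2-fold higher in IR than in sham, and 5 of the 6 Kupffer cell markers were lower. Sums were 126, 91.8 and 103 for endothelial markers, 158, 111 and 113 for stellate cell markers, and 54.2, 62.0 and 93.6 for cholangiocyte markers. Such sums can hide markers that moved in opposite ways. Of the 6 endothelial markers 1 was at least 2-fold higher and 1 lower in IR than in sham. Among the 6 stellate cell markers 0 were higher and 1 was lower. Of the 4 cholangiocyte markers over 1 FPKM 1 was higher and 0 were lower, and of the 5 such hepatocyte markers 0 were either. The hepatocyte markers summed to 20440, 16157 and 23017 without albumin, which the tables list at 0 in all 3 libraries because its locus held too many fragments to be processed. In whole liver, fewer cells of a type and less RNA per cell cannot be told apart.

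The 10 members spanned a 741-fold range of FPKM, from 1.04 for Inhba in sham to 771 for Igfbp4 in WI. In sham the order was Igfbp1, Igfbp4, Igfbp2, Ghr, Igf1, Igfals, Gdf15, Inhbe, Fst and Inhba. The deposited 95% bounds of neighbours in that order overlapped except between Gdf15 and Inhbe and between Inhbe and Fst. In WI, Igfbp1 moved from the first to the third place, behind Igfbp4 and Igfbp2, with bounds that overlapped those of both. In IR, Fst stood above Inhbe, which had been higher than Fst in both other libraries, and the bounds of Fst and Inhbe were apart in each. The plot of levels by library shows these values with their bounds. The bounds come from the model of the software and do not measure variation between mice of a condition.

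**Figure D1:**
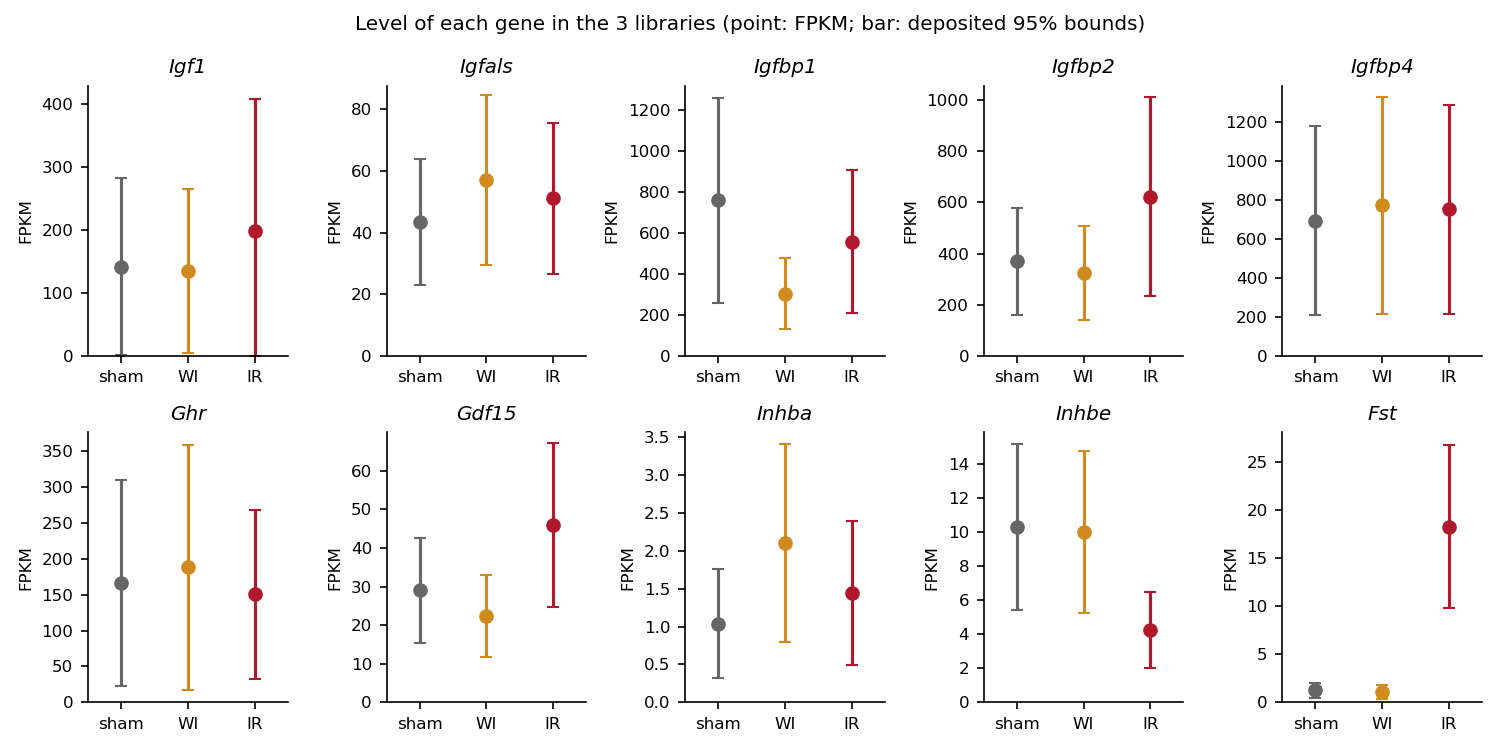
FPKM (vertical axis, linear, from 0) of each of the 10 genes in the sham, WI and IR libraries. Points are the deposited FPKM of 1 library and bars its deposited 95% bounds. Fst stands at 18.3 FPKM in IR against 1.26 in sham and 1.07 in WI with bounds apart, and Igfbp1 is lowest in WI.

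The comparison of WI with sham sets a liver clamped for 90 min beside an unclamped one, with 1 library each. Differences are given for log2(FPKM + 1), which understates the change of low genes, with a 95% interval built from the bounds. Of the 10 members 1, Igfbp1, was at least 2-fold lower in WI than in sham, against 1.1% of all 10792 genes. None of the 10 was at least 2-fold higher, against 0.751% of all genes. No member had bounds apart in this comparison, where 0.195% of all genes had bounds apart and were higher and 0.482% were lower. The median difference was -0.06 over the members and 0.02 over all genes.

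After reperfusion the largest difference among the members was that of Fst, and the members at least 2-fold apart from WI were Fst and Gdf15, both higher in IR, and Inhbe, which was lower. These are 2 of 10 higher, against 5.78% of all genes, and 1 of 10 lower, against 1.43%. Bounds were apart for Fst alone among the members, which is 1 of 10 against 3.22% of all genes in the higher direction, and for 0 of 10 against 0.398% in the lower direction. Against sham, Fst was again at least 2-fold higher (1 of 10, 5.35% of all genes) and Inhbe at least 2-fold lower (1 of 10, 2.15% of all genes). Bounds were apart for Fst (1 of 10, 2.7% of all genes) and for 0 of 10 in the lower direction (1.12% of all genes). The comparisons share libraries, so the IR values enter both. The summed FPKM of neutrophil markers was highest and that of Kupffer cell markers lowest in IR, and the part of these cells in these differences was not tested. The members had a median difference of 0.26 for IR against WI and 0.24 for IR against sham, beside 0.03 and 0.05 over all genes. The FPKM of the IR library summed to more than that of the others. Genes with too many fragments to be processed numbered 1 in sham, 1 in WI and 7 in IR, so the sums may lack abundant transcripts. When each library was rescaled to a common sum, the members' medians turned to -0.29 and -0.22. Those of all genes turned to -0.41 and -0.42. On that scale 322 of the 10792 genes were at least 2-fold higher and 833 lower in IR than in WI. Against sham 269 were higher and 1109 lower, so common-sum counts below are to be read beside these.

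**Figure D2:**
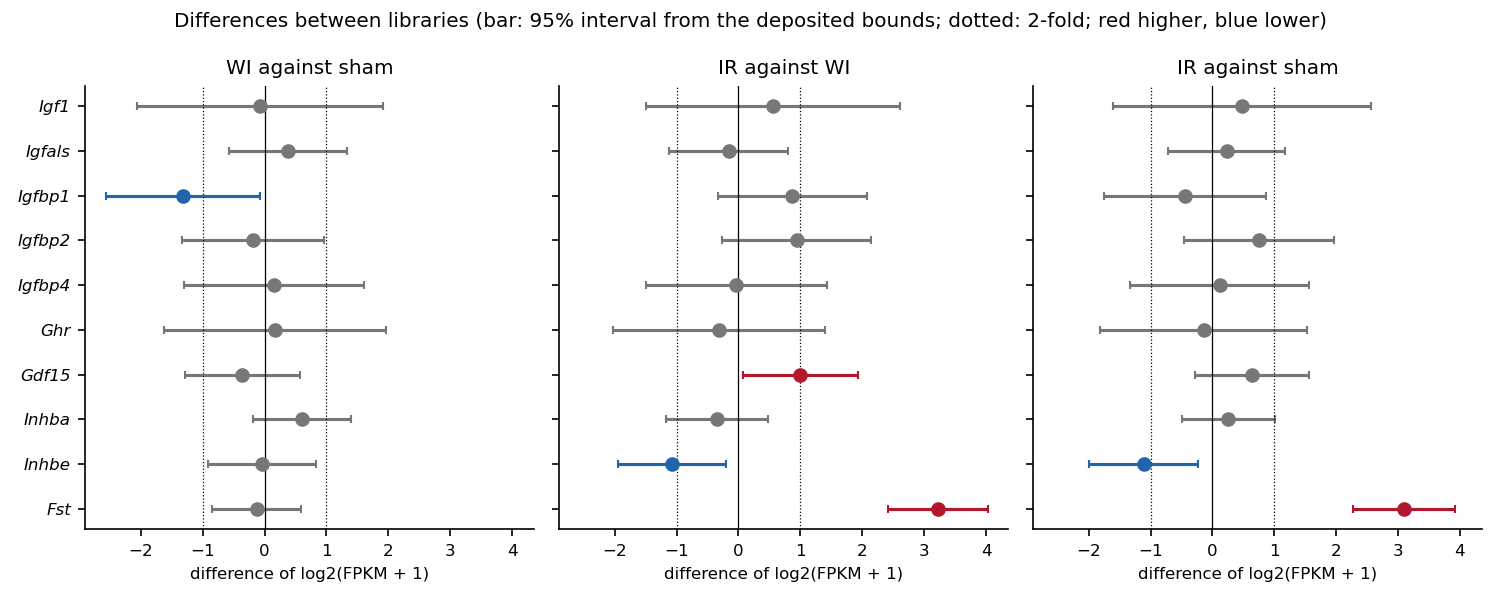
Difference of log2(FPKM + 1) (horizontal axis) for each of the 10 genes in the 3 comparisons. Bars are 95% intervals built from the deposited bounds, dotted lines mark a 2-fold difference, and red and blue mark genes at least 2-fold higher or lower. Igfbp1 is past the line in WI against sham, and Fst and Inhbe are past it in both comparisons with IR, where Gdf15 lies on the line against WI.

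At the head of the axis, Ghr (chromosome 15, 3317760 to 3583230 of mm10) was at 166 FPKM in sham (95% bounds 23.4 to 309), 188 in WI (17.6 to 358) and 151 in IR (32.8 to 268). The 3 levels lay well inside each other's bounds, and the differences were 0.18 for WI against sham, -0.32 for IR against WI and -0.14 for IR against sham. Igf1, the main secreted product of growth hormone action in liver (chromosome 10, 87859056 to 87937047), was at 142 FPKM in sham (1.09 to 283), 135 in WI (4.89 to 265) and 198 in IR (0 to 408). These bounds, equal to a coefficient of variation of 49.2% to 54.1%, were wide beside a median of 26.2% to 26.3% over all genes, so the 0.48 by which IR exceeded sham has an interval from -1.60 to 2.56, and its sign turned to -0.10 when FPKM was rescaled to a common sum. At this precision a 2-fold difference in Ghr or Igf1 in either direction was not detectable.

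Of the other 8 genes of the growth hormone list with FPKM of at least 1, 4 were at least 2-fold higher in IR than in WI and 5 than in sham, and 1, Socs2, was lower in WI than in sham. On a common sum 4 were higher and 1 was lower in IR than in WI, and 3 were higher and 1 was lower than in sham. Socs2, a feedback inhibitor induced through STAT5, was at 16.0 FPKM in sham, 6.56 in WI and 58.8 in IR, so that it was lowest in the ischemic library and highest in the reperfused one. Cish, another STAT5 target and inhibitor, followed the same order with 7.75, 3.81 and 21.5. Socs3, which is induced mainly by interleukin-6 through STAT3, was at 3.14, 5.38 and 109, and Socs1, induced by interferons and other cytokines, at 0.424, 0.400 and 4.49. Stat5a itself was at 1.81, 2.41 and 4.96 and passed 2-fold only against sham, with overlapping bounds. For Socs1, Socs2, Socs3 and Cish the bounds in IR were apart from those in both other libraries. The median difference of these 8 genes was 0.07 for WI against sham, 1.39 for IR against WI and 1.22 for IR against sham, and on a common sum 0.03, 1.01 and 0.73.

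The carriers of IGF-1 differed among themselves. Igfals (chromosome 17, 24878770 to 24882008), the subunit that holds IGF-1 in its long-lived complex, was at 43.5 FPKM in sham (23.0 to 64.1), 57.1 in WI (29.6 to 84.5) and 51.2 in IR (26.7 to 75.6). Its bounds overlapped throughout, with a difference of 0.38 for WI against sham (interval -0.57 to 1.34). The ratio of Igf1 to Igfals FPKM was 3.26 in sham, 2.36 in WI and 3.87 in IR.

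Igfbp1 (chromosome 11, 7197787 to 7202546), whose start is preceded by the insulin response core printed above, was at 761 FPKM in sham (260 to 1263), 305 in WI (134 to 476) and 559 in IR (211 to 906). It was highest in sham, where 99.2% of genes lay below it, and lowest in WI, where its FPKM was 0.401 of that in sham. The difference between WI and sham was -1.32, with an interval from -2.56 to -0.07 that just leaves out 0, although the bounds of the 2 libraries overlapped. IR lay between the other libraries, 0.87 above WI (-0.34 to 2.08) and with a difference of -0.45 against sham, with overlapping bounds in both cases. When FPKM was rescaled to a common sum, IR was more than 2-fold below sham, with a difference of -1.03, while the difference between WI and sham was -1.35. Kupffer cell markers were also lower in WI than in sham, 221 against 442 in sum, and their part in the level of Igfbp1 was not tested.

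Igfbp2 (chromosome 1, 72824480 to 72852471), a carrier that also falls with growth hormone and rises with fasting, was at 370 FPKM in sham (160 to 579), 324 in WI (142 to 506) and 622 in IR (233 to 1011). It was highest in IR, 0.94 above WI (-0.27 to 2.15) and 0.75 above sham (-0.47 to 1.97), and the bounds of all libraries overlapped. On a common sum these differences were 0.39 and 0.17. Igfbp4 (chromosome 11, 99041260 to 99052643), an inhibitor of IGF action that proteases cleave, was at 693 (208 to 1177), 771 (215 to 1327) and 750 FPKM (214 to 1287). Its 3 levels differed by at most 0.15 as deposited, with intervals that reached beyond 1 in both directions. On a common sum the differences were -0.58 for IR against WI and -0.47 for IR against sham.

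Taken as a family, Igfbp1 to Igfbp7 summed to 1971 FPKM in sham, 1517 in WI and 2071 in IR, and Igfbp1, Igfbp2 and Igfbp4 made up 92.5%, 92.3% and 93.2% of that. Within the sum the share of Igfbp1 was 38.6% in sham, 20.1% in WI and 27.0% in IR. The share of Igfbp4 was 35.1%, 50.8% and 36.2%, so that Igfbp4 supplied the largest part in WI and in IR, and that of Igfbp2 was 18.7%, 21.4% and 30.0%. FPKM is per length of transcript, so these shares compare transcripts and not protein. Igfbp1 transcripts exceeded those of Igf1 by a ratio of 5.37 in sham, 2.26 in WI and 2.82 in IR. Igfbp3, which lies 3544 bases from Igfbp1 and encodes the main carrier of the long-lived complex, was at 13.6, 8.35 and 7.97 FPKM. It was lower in WI than in sham by a smaller difference, -0.64, and did not share the higher level of Igfbp1 in IR.

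Of the 20 genes of the IGF ligand, carrier and receptor list, 12 had an FPKM of at least 1, and of the 7 that are no members, 0 were at least 2-fold different in any comparison, while on a common sum 3 of the 7 were lower in IR than in WI and 3 than in sham. The receptor for IGF-1 itself, Igf1r, was at 0.245 to 0.338 FPKM, and the insulin receptor, Insr, was at 16.1 in sham, 15.3 in WI and 9.10 in IR. Genes that respond to insulin, fasting and glucocorticoids, as Igfbp1 does, were followed as a list of 14. Between WI and sham, 3 of them were at least 2-fold lower and 1 was higher, with a median of -0.45, and on a common sum 5 were lower and 1 was higher. Pdk4, the kinase that spares glucose in fasting, was at 135, 16.1 and 79.8 FPKM, and the glucocorticoid target Fkbp5 at 72.4, 13.2 and 32.2. Both were lowest in WI and intermediate in IR, the order seen for Igfbp1, and their bounds in sham and WI were apart. G6pc, the last enzyme of glucose production, was at 335, 152 and 78.1 FPKM and was lowest in IR, and its bounds in sham and WI overlapped. Srebf1, the lipogenic factor that insulin induces, was higher in WI (77.7) than in sham (33.7), with overlapping bounds. Against sham, IR had 3 of the 14 at least 2-fold lower (G6pc, Fkbp5 and Sgk1) and 0 higher, and against WI 2 higher (Fkbp5 and Pdk4) and 0 lower. In these calls bounds were apart only for G6pc against sham and Pdk4 against WI. On a common sum the counts against sham were 10 lower and 0 higher, and those against WI 1 higher and 2 lower. Of all 10792 genes on that scale, 1109 were lower and 269 higher against sham, and 833 lower and 322 higher against WI.

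**Figure D3:**
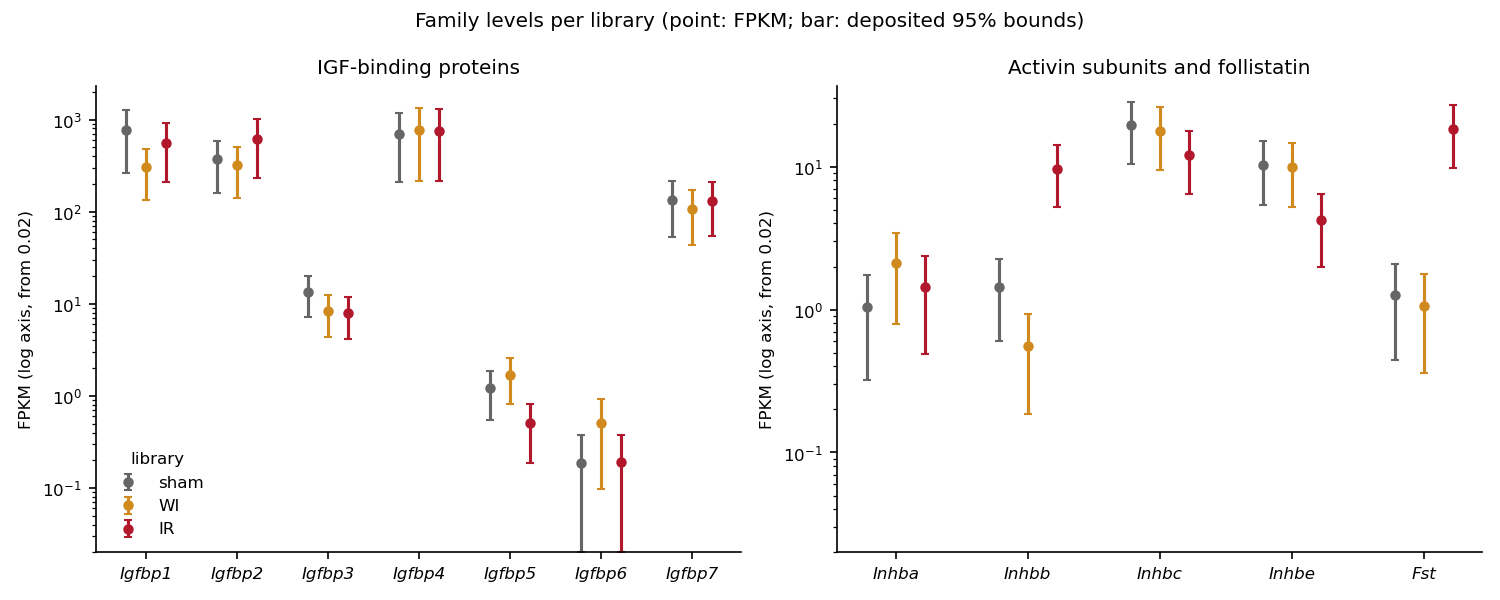
FPKM (vertical axes, logarithmic) of the 7 IGF-binding proteins and of the activin beta subunits with follistatin in the sham, WI and IR libraries. Points are the deposited FPKM and bars the deposited 95% bounds, with bars that reach 0 cut at the lower edge. Igfbp1, Igfbp2 and Igfbp4 stand above the other carriers in each library, and Inhbb and Fst stand apart in IR.

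Among the activin genes, Inhbe (chromosome 10, 127349402 to 127351772), the beta E subunit, was at 10.3 FPKM in sham (5.42 to 15.2), 9.99 in WI (5.25 to 14.7) and 4.23 in IR (1.998 to 6.46). Sham and WI were nearly equal and IR was lower, by differences of -1.07 against WI (-1.95 to -0.20) and -1.11 against sham (-1.99 to -0.24). The bounds overlapped as deposited, and on a common sum of FPKM they were apart, with differences of -1.53 and -1.60. Inhbc, the beta C subunit, whose locus lies 4553 bases from that of Inhbe, was at 19.5, 17.8 and 12.1 FPKM. Its differences of -0.52 and -0.64 had the same sign as those of its neighbour and did not reach 2-fold.

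Inhba (chromosome 13, 16014475 to 16027211), the subunit of activin A, was the lowest of the members in sham and IR, at 1.04 FPKM in sham (0.322 to 1.76), 2.10 in WI (0.798 to 3.40) and 1.44 in IR (0.492 to 2.39). WI was highest, with bounds that overlapped those of both other libraries. The ratio of FPKM between WI and sham was 2.02, but the difference of log2(FPKM + 1) was 0.60 (-0.19 to 1.40), so the call depends on the pseudocount. The difference between IR and sham, 0.26, turned to -0.06 on a common sum. Inhbb, the subunit of activin B, is no member, but it was the one other activin gene past 2-fold between IR and WI as deposited. It was at 1.43 FPKM in sham, 0.557 in WI and 9.67 in IR, differences of 2.78 against WI and 2.13 against sham with bounds apart in both.

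Fst (chromosome 13, 114452262 to 114458730), the secreted inhibitor of activins A and B, was at 1.26 FPKM in sham (0.446 to 2.07), 1.07 in WI (0.360 to 1.77) and 18.3 in IR (9.84 to 26.8). Sham and WI could not be separated, and IR lay above both with bounds well apart. The FPKM ratio was 17.2 for IR against WI and 14.6 for IR against sham. On the log2(FPKM + 1) scale the differences were 3.22 (2.42 to 4.03) and 3.10 (2.28 to 3.92), and 99.5% of genes had a lower difference in each comparison. Fst kept a difference of at least 2.63 under every rescaling and pseudocount tried. The summed neutrophil markers, 24.3, 18.7 and 456, were also highest in IR, and their part in the level of Fst was not tested.

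The beta subunits together summed to 32.2 FPKM in sham, 30.4 in WI and 27.4 in IR, while their makeup differed. Inhbc and Inhbe supplied 60.4% and 31.9% in sham and 58.4% and 32.8% in WI. In IR, Inhbc supplied 44.1%, Inhbb 35.2% and Inhbe 15.4%, so by point values the second place passed from Inhbe to Inhbb. Their bounds in IR overlapped, with 1.998 to 6.46 for Inhbe and 5.19 to 14.1 for Inhbb. Inhba supplied 3.22%, 6.91% and 5.24%. The ratio of Fst to the sum of Inhba and Inhbb, the subunits of the activins that follistatin binds most tightly, was 0.509 in sham, 0.401 in WI and 1.65 in IR. By these point values Fst transcripts exceeded those of both subunits together in IR alone of the 3 libraries. The bounds of Fst overlapped those of Inhbb in each library, in IR with 9.84 to 26.8 against 5.19 to 14.1. The ratio has no interval.

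Of 20 listed activin ligands, inhibitors, receptors and Smads, 16 reached 1 FPKM in some library. Of the 13 that are no members, 0 were at least 2-fold different between WI and sham, 1 was higher in IR than in WI (Inhbb) and 2 were higher in IR than in sham (Inhbb and Smad3). On a common sum 1 was higher and 2 were lower against WI, and 1 higher and 1 lower against sham. Smad3, which carries the activin signal to the nucleus, was at 1.39 FPKM in sham, 2.09 in WI and 4.13 in IR. The receptors Acvr1, Acvr1b, Acvr2a and Acvr2b were under 2-fold in every comparison as deposited, and the median of the 13 genes was -0.06, -0.10 and -0.21 for WI against sham, IR against WI and IR against sham. The inhibin alpha subunit, Inha, was at most 0.116 FPKM.

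Gdf15 (chromosome 8, 70629394 to 70631635) was at 29.1 FPKM in sham (15.4 to 42.7), 22.4 in WI (11.8 to 33.1) and 45.9 in IR (24.7 to 67.2). It was lowest in WI and highest in IR, and the bounds of all libraries overlapped. The difference between IR and WI was 1.002 (0.08 to 1.93), just past 2-fold, and it was 0.96 after rescaling by the median ratio and 0.47 on a common sum. Against sham the IR library differed by 0.64 (-0.28 to 1.57), and by 0.07 on a common sum. Gdf15 is therefore past 2-fold only on the deposited scale of FPKM.

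Gdf15 is a known target of the integrated stress response, in which ATF4 and CHOP (encoded by Ddit3) induce genes when translation is curbed, and Inhbe is known to respond to endoplasmic reticulum stress. Of 12 genes of that response, 0 were at least 2-fold different between WI and sham, 7 were higher and 1 (Vldlr) was lower in IR than in WI, and 9 were higher and 0 lower in IR than in sham. The medians were 0.05, 1.36 and 1.33, and on a common sum 0.04, 0.82 and 0.82, with 6 genes higher against WI and 5 against sham. Atf3 was at 8.72, 5.76 and 114 FPKM, Ppp1r15a, the phosphatase subunit that ends the response, at 7.98, 7.76 and 47.4, and Ddit3 at 3.97, 4.81 and 19.4. Chac1, which degrades glutathione, was at 6.00, 2.67 and 21.3 FPKM, Asns, which makes asparagine, at 0.0649, 0.176 and 4.34, and Cebpb at 158, 113 and 334. For Atf3, Ppp1r15a, Chac1 and Asns the bounds in IR were apart from those in both other libraries, and for Vldlr they were apart from those in WI. Bounds overlapped for all other genes of this list called higher as deposited, among them Atf4, Ddit3 and Cebpb in both comparisons with IR. Gdf15 was thus higher in IR beside genes of this list by a smaller difference than their median, and Inhbe was lower.

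**Figure D4:**
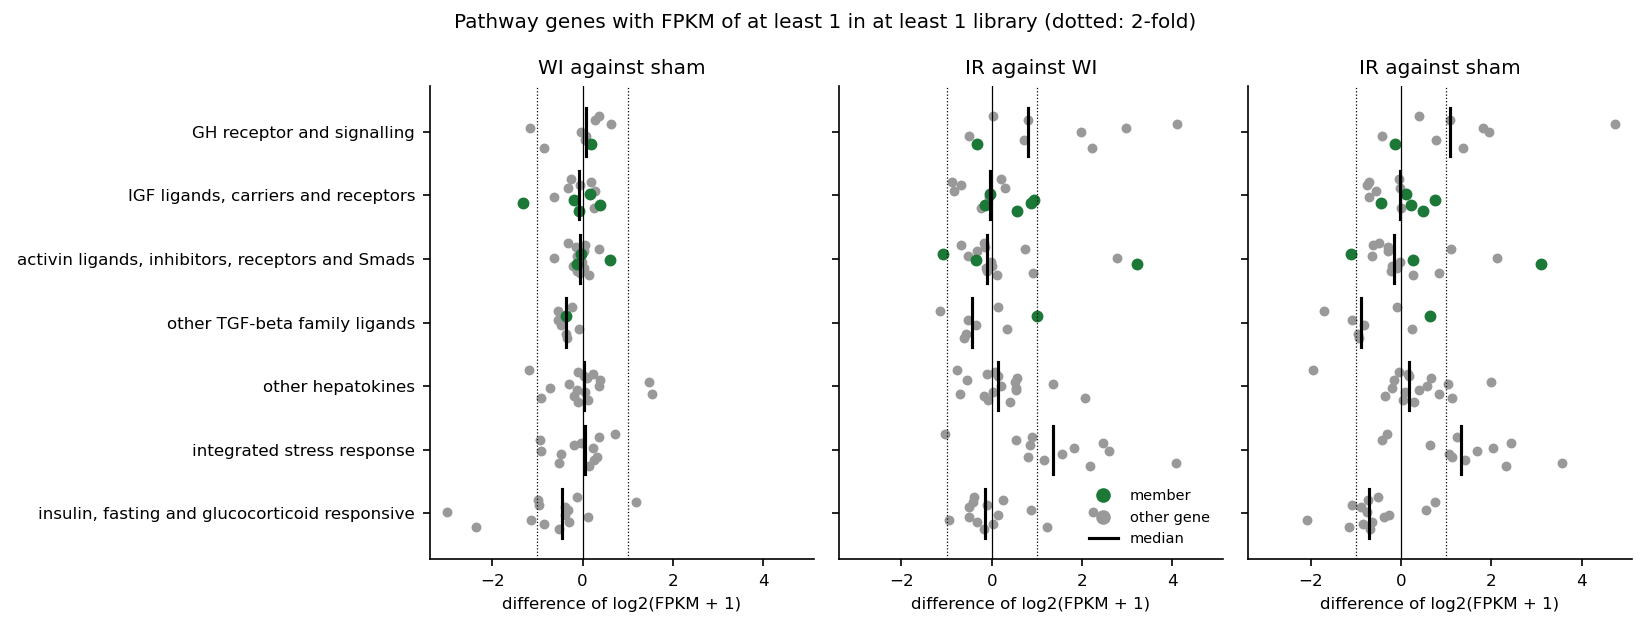
Difference of log2(FPKM + 1) (horizontal axis) in the 3 comparisons, for the genes of 7 lists that reached 1 FPKM in some library. Green points are the members described here, grey points the other genes of a list, black bars the median of a list and dotted lines a 2-fold difference. The integrated stress response and growth hormone lists have medians above 0.8 in both comparisons with IR.

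Of 14 listed ligands of the TGF-beta family outside the activins, 8 reached 1 FPKM, and of the 7 besides Gdf15, 0 were at least 2-fold higher in any comparison, while Gdf2 was lower in IR than in both other libraries and Gdf10 was lower in IR than in sham. Gdf2, which encodes BMP9, a factor that acts on endothelium, was at 9.19, 5.93 and 2.13 FPKM. Gdf10 was at 3.93, 2.38 and 1.33. The median of the 7 genes was -0.37 for WI against sham, -0.53 for IR against WI and -0.94 for IR against sham, and on a common sum 2 and 5 of the 7 were lower in IR than in WI and in sham. Of all 10792 genes, 833 and 1109 were lower on that scale.

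The liver secretes other hormone-like proteins, and 17 of 18 listed hepatokines reached 1 FPKM. Between WI and sham, 2 were at least 2-fold higher (Angptl8 and Lcn2) and 1 lower (Tsku). Angptl8, an inhibitor of lipoprotein lipase that rises with feeding, was at 10.0, 31.1 and 18.8 FPKM, the reverse of the order of Igfbp1. Angptl4, an inhibitor of the same lipase that rises with fasting, was at 122, 63.5 and 268 FPKM, and Hamp, the iron hormone hepcidin, was at 1699.6, 1378 and 3515. These were the 2 hepatokines at least 2-fold higher in IR than in WI, where 0 were lower. Against sham 3 were higher (Angptl4, Hamp and Lcn2) and 1 lower (Tsku). On a common sum 1 was higher and 3 were lower in IR than in WI, and 1 higher and 1 lower than in sham. Lcn2, an acute-phase protein that neutrophils also make, was at 121, 335 and 482 FPKM, and Tsku was at 44.3, 18.9 and 10.7. Bounds were apart for Angptl4 in IR against WI and for Lcn2 and Tsku in IR against sham. They overlapped for the other hepatokine calls made as deposited. Fgf21, a fasting and stress hormone, was at 1.92, 0.768 and 1.55 FPKM, with a difference of -0.72 between WI and sham, which is under 2-fold only with the pseudocount.

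For each member at least 2-fold different in a comparison, the genes of nearest pattern were sought among 6630 genes with FPKM of at least 5 in a library, by the distance between profiles of log2(FPKM + 1) centred on their mean over the 3 libraries. With 3 points per gene many genes lie close by. The nearest to Igfbp1 were Gja4, Pla2g7 and Rasgef1b, and 84 genes lay within a distance of 0.5. Genes near to Fst included Mmp8, a neutrophil collagenase, and the Y-linked Ddx3y, with 32 genes within 0.5. Dennd5b, Aldh3a2 and Agphd1 were nearest to Inhbe, with 466 genes within 0.5, and Mbd1, Wfdc17 and Map1lc3a to Gdf15, with 1462.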

How the data were processed

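RNA of mouse liver was sequenced as 1 library per condition. The authors mapped read pairs to mm10 and deposited FPKM per gene with 95% bounds and a status from Cuffdiff, and the submitters' processing notes name TopHat2 2.0.9 and Cufflinks 2.0.2. The tables hold no counts, so the number of fragments behind each value is unknown. For whole libraries the paper reports aligned read pairs, with a lower aligned share in IR than in sham and WI. No interval here measures variation between mice of a condition. Summed FPKM was 475754 in sham, 487912 in WI and 712423 in IR, and the 10 highest genes held 14.9%, 14.8% and 20.8% of it. Genes with too many fragments to be processed, 1, 1 and 7 in these libraries, may be missing from both.

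Differences were taken in log2(FPKM + 1), and the genes that reached 1 FPKM in some library were compared by a 2-fold rule and by whether the bounds overlap. The SD of each FPKM was taken as the width of its bounds divided by 2 times 1.96 (the upper side alone where the lower bound is 0) and carried to the log2 scale. The members and gene lists were chosen with earlier results of these data known, and the lists came from general knowledge. Genes named beside the members are the list genes at least 2-fold different in any comparison (at most 6 per list), the 3 nearest patterns per differing member and marker lists, of which 1 gene is not reported here. Other relatives, receptors and hepatokines (Igfbp3, Inhbc, Igf1r, Insr, Inha, the activin receptors and Fgf21) were named after their values were seen. Of the neutrophil list, Ly6g was not used here, and Angptl8 appears in the tables under an older symbol. Coordinates are those of the tables in mm10, counted from 1. Alternatives were other pseudocounts, filters, fold thresholds and scalings. The scripts were tested on simulated data. Tables were handled in pandas 2.3.3 and numpy 2.4.6 under Python 3.11.15, and plots were drawn in matplotlib 3.10.9.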

Additional observations from a re-analysis of the deposited data

How the results depend on the processing

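The members past 2-fold between WI and sham numbered 1 as reported, 2 with a pseudocount of 0.01 and 2 at a 1.5-fold threshold, Inhba being added in both, and 0 at 4-fold. Of all 10792 genes, 163 were higher and 284 lower with that pseudocount, 339 and 461 at 1.5-fold and 7 and 17 at 4-fold. Between IR and WI the 3 members became 5 at 1.5-fold and 1 (Fst) at 4-fold, and between IR and sham the 2 became 4 and 1 (Fst). Over all genes 1333 were higher and 799 lower at 1.5-fold between IR and WI, and 1548 and 1024 between IR and sham, and at 4-fold 175 and 19, and 141 and 25. On a common sum of FPKM (TPM), and on a common sum without the genes of highest FPKM, bounds were apart for 2 members (Fst higher, Inhbe lower) in place of 1, both in IR against WI and in IR against sham. The genes lower with bounds apart rose in number with it, from 43 to 278 on the common sum and 144 without the highest genes for IR against WI, and from 121 to 489 and 270 for IR against sham. All other counts of members stayed within 1.5 times the reported count, although Gdf15 was under 2-fold between IR and WI under each rescaling and Igfbp1 was lower in IR than in sham on the common sum. No difference of a called member changed sign. The common sum moved the median of all genes from 0.03 to -0.41 for IR against WI and from 0.05 to -0.42 for IR against sham, and turned the sign of 4 uncalled differences, those of Igf1, Igfals, Igfbp4 and Inhba between IR and sham. It left 27.9% of the genes past 2-fold on the higher side between IR and WI in place of 80.2%, and 19.5% in place of 71.3% between IR and sham. Without the genes of highest FPKM these shares were 49.8% and 36.1%. With a pseudocount of 0.01 they were 66.9% and 55.4%. A pseudocount of 1 added after scaling to TPM was chosen after seeing the data and also turned those 4 signs. The cause of these changes in number was not tested beyond the scaling itself. No paired analysis was possible because each condition has 1 library, and leaving out replicates was not possible for the same reason.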
